A study of Mus musculus with 4 samples.

Results

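Gene-rich megabase bins are the stretches of the mouse autosomes where protein-coding genes are packed most tightly. The autosomes were divided into fixed bins of 1 Mb, beginning at 3 Mb, and a bin was called gene-rich when the midpoints of 13 or more RefSeq protein-coding genes fell in it. This gave 535 of 2394 bins, which hold 12453 of the 20442 protein-coding genes in these bins. Where shares of all protein-coding genes or of genes elsewhere are given, they rest on 21774 genes. These also include genes outside the autosomal bins, such as those of the sex chromosomes. The choice used gene positions only and no measured value. Trimethylation of lysine 9 on histone H3 (H3K9me3) had been mapped by chromatin immunoprecipitation and sequencing (ChIP-seq) with an anti-H3K9me3 antibody, on formaldehyde-fixed chromatin and with paired reads of 100 bases. The cells were CD8+ T cells of the C57BL/6 background, grown for 3 days in medium with IL-2 and antibodies against CD28 and CD3, either wild type (WT) or Suv39h1-KO, and otherwise treated alike per the labels. Each genotype has 1 H3K9me3 library, used here as the deposited list of its islands, the stretches where reads were called enriched; the input libraries are not analysed here. With 1 library per genotype no test between WT and KO is possible, and every difference below is one between 2 lists. An island list shows neither the loss of Suv39h1 nor the identity of the cells, so these labels could not be checked, and the number of mice behind each library is not known here.

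H3K9me3 is a mark of silent, compact chromatin. SUV39H1 is one of several enzymes that place it, best known from the repeats around centromeres, and SETDB1, brought to DNA by KRAB zinc finger proteins, is another. Gene-dense DNA holds many active genes and little of the mark, but it also holds clusters of gene families that T cells do not use, such as odorant and pheromone receptors, hair keratins and liver enzymes, and the KRAB zinc finger genes, whose own bodies are known targets of the mark.

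Where a promoter lay inside an island, it was mostly one with few CG dinucleotides, and 6 promoters of gene-rich bins are printed to show this. Each runs 5′ to 3′ on the gene's strand, from 250 bases before to 50 bases after the start of transcription, is taken from RefSeq assembly GRCm38.p6, and has its CG dinucleotides in capitals. Olfr44, an odorant receptor gene (chr9:39493939-39494238, minus strand), has its window inside islands of both lists, and Olfr183 (chr16:58995154-58995453, plus strand) inside a KO island alone. Vmn2r120, a pheromone receptor gene (chr17:57545265-57545564, minus strand), lies inside a WT island alone, and Krtap21-1, a hair protein gene (chr16:89403725-89404024, minus strand), inside a KO island alone. The other 2 promoters, chosen for contrast after their values were seen, lie inside no island: Zfp982 (chr4:147442864-147443163, plus strand), whose gene body carries long islands in both lists, and the histone gene H2bc13 (chr13:21716134-21716433, minus strand).
Olfr44: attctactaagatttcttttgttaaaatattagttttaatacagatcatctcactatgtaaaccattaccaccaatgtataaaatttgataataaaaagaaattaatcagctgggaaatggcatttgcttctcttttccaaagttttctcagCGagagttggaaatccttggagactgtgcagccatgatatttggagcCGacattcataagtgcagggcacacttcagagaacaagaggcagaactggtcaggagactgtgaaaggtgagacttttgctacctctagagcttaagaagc
Olfr183: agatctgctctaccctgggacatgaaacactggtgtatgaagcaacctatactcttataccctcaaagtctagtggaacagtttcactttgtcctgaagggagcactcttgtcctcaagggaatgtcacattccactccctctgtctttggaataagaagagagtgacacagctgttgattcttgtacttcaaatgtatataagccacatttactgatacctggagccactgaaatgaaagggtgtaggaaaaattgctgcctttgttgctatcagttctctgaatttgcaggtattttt
Vmn2r120: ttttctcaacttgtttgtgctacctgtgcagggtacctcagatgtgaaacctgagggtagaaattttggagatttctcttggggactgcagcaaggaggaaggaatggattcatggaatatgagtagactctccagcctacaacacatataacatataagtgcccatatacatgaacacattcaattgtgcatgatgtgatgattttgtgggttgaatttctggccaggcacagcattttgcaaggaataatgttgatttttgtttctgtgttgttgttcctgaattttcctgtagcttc
Krtap21-1: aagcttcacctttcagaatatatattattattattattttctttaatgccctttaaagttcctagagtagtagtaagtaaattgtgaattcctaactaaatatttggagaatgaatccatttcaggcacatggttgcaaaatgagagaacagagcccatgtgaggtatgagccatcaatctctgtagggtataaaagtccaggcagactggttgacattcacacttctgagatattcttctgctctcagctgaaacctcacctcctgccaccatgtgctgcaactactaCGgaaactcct
Zfp982: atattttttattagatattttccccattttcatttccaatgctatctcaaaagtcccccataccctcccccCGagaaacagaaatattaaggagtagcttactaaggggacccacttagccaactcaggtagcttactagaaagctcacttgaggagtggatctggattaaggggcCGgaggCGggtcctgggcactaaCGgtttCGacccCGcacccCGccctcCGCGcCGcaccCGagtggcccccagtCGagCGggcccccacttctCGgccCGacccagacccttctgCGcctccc
H2bc13: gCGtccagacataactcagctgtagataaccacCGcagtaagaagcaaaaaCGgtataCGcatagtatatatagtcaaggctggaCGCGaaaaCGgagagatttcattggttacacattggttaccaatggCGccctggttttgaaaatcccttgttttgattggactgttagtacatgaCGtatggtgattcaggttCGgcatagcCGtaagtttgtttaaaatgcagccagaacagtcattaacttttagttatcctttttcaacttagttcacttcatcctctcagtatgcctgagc
The windows of Olfr183 and Vmn2r120 hold 0 CG, that of Krtap21-1 holds 1 and that of Olfr44 holds 2, against 11 for H2bc13 and 16 for Zfp982. The same rule also gave Vmn2r80, with 4 CG, and Krtap3-2, with 0, which are not printed. The contrast windows belong to other families, so these examples do not part the island from the family.

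Most gene-rich bins carried an island, but fewer than bins in general. A WT island had its midpoint in 454 of the 535 bins (84.9%, exact 95% interval 81.5 to 87.8), against 90.8% of all autosomal bins. A KO island lay in 399 (74.6%, interval 70.7 to 78.2), against 89.5% of all. Intervals in this account cover the counting of bins or genes only, and neighbouring members share islands. Both lists had an island in 371 bins, the WT list alone in 83, the KO list alone in 28 and neither list in 53. The WT-alone bins were 15.5% of the gene-rich bins, against 6.60% of all bins, and the KO-alone bins 5.23%, against 5.30%, which is the general level. The WT cover, the length inside islands, was longer in 313 bins and the KO cover in 166, with 3 equal, whereas over all bins 37.0% had more in WT and 58.7% more in KO. A gene-rich bin thus more often had the longer cover in WT, while bins in general more often had it in KO.

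The summed cover still came out slightly larger in KO. The 2123 WT islands covered 22.7 Mb, or 4.24% of the bins' length, and the 2616 KO islands 25.1 Mb, or 4.69%, a KO to WT ratio of 1.11; with the KO list cut to the WT number of islands, by dropping those with fewest reads, KO cover was 3.03%, below WT. The median bin had 26.5 kb in WT against 13.5 kb in KO. The same ratio was 3.13 in the 268 bins without genes, 2.26 in the 790 with 1 to 4 genes and 1.26 in the 801 with 5 to 12 genes. Islands of gene-rich bins were of like length in both lists, with medians of 9.5 kb in WT against 8.5 kb in KO, and of like density, with medians of 41.5 and 41.0 reads per kb. Among the WT islands 44.7% were touched by a KO island, against 47.9% over all autosomes, and among the KO islands 38.9% by a WT island, against 24.8%. Just inside the threshold, the 49 bins with 13 genes had 4.27% cover in WT and 5.83% in KO, and just outside it the 55 bins with 12 genes had 4.88% and 4.94%.

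**Figure D1:**
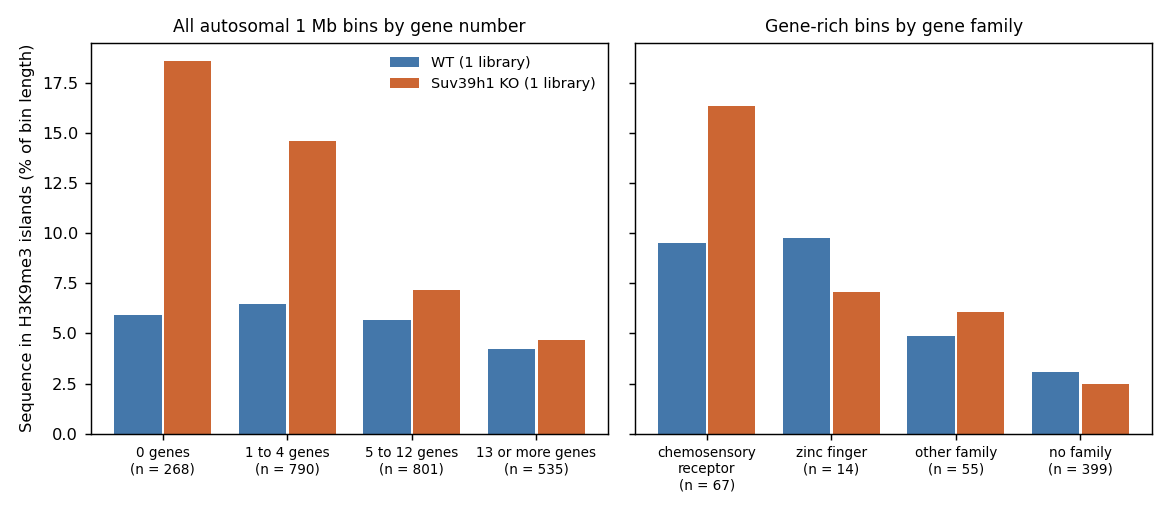
Share of bin length inside H3K9me3 islands (y axis, percent) in the WT and the KO list, 1 library each; left, all autosomal bins by gene number; right, the 535 gene-rich bins by the family they hold, with the number of bins under each pair of bars. The KO bars stand far above the WT bars in bins with few genes, the pair is nearly level at 13 or more genes (4.24% and 4.69%), and within the gene-rich bins KO is higher where chemosensory receptors lie (9.53% and 16.3%) and lower in zinc finger bins (9.75% and 7.09%).

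The small net difference was the sum of opposite ones. Gene families were assigned by symbol, and a bin was named for a family group when at least 5 of its genes belonged to it. The 67 chemosensory receptor bins hold clusters of odorant, pheromone, taste, trace amine or Mas-related receptors. Cover there was 9.53% in WT against 16.3% in KO, a KO to WT ratio of 1.71. It was longer in KO in 48 bins and in WT in 17. In the 14 zinc finger bins it was 9.75% and 7.09%, a ratio of 0.727, with WT longer in 12. In the 55 bins of another family it was 4.88% and 6.09%, a ratio of 1.25 that became 0.777 with KO islands of equal number. The 3 with the largest KO excess, at 87 Mb of chromosome 5 and 88 and 89 Mb of chromosome 16, had 229 kb in WT against 928.5 kb in KO. The other 52 had 2456.5 and 2422 kb, a ratio of 0.986. Leaving out bins picked for their KO excess can only lower the ratio. The 52 also include the bin at 88 Mb of chromosome 1 (151 and 20 kb), whose copy number was not tested. In the 399 bins with no such family cover was 3.06% and 2.45%, a ratio of 0.80, with WT longer in 249 and KO in 98. The chemosensory ratio stayed above 1 under every alternative run, from 1.17 to 1.82. The zinc finger and no-family ratios stayed below 1, from 0.522 to 0.763 and from 0.488 to 0.864. The KO list of equal number drops KO islands only, so that run could not have moved the zinc finger and no-family ratios above 1.

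Without the chemosensory bins the other 468 gene-rich bins had 3.48% cover in WT against 3.02% in KO, a KO to WT ratio of 0.868. Among bins with no family the ratio was lower where genes were more numerous: 0.957 with 13 to 15 genes, 0.837 with 16 to 20, 0.638 with 21 to 30 and 0.54 in the 58 bins with 31 or more, where cover was 2.36% in WT and 1.28% in KO. Cover was also unevenly spread. The 50 bins with most cover held 34.1% of the WT and 48.7% of the KO total, 27 of them chemosensory in WT and 33 in KO, and 28 bins stood in both sets. By chromosome the ratio ran from 0.681 on chromosome 11 to 1.62 on chromosome 16. It was above 1 on 11 of 19 chromosomes, and on 5 once chemosensory bins were left out.

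**Figure D2:**
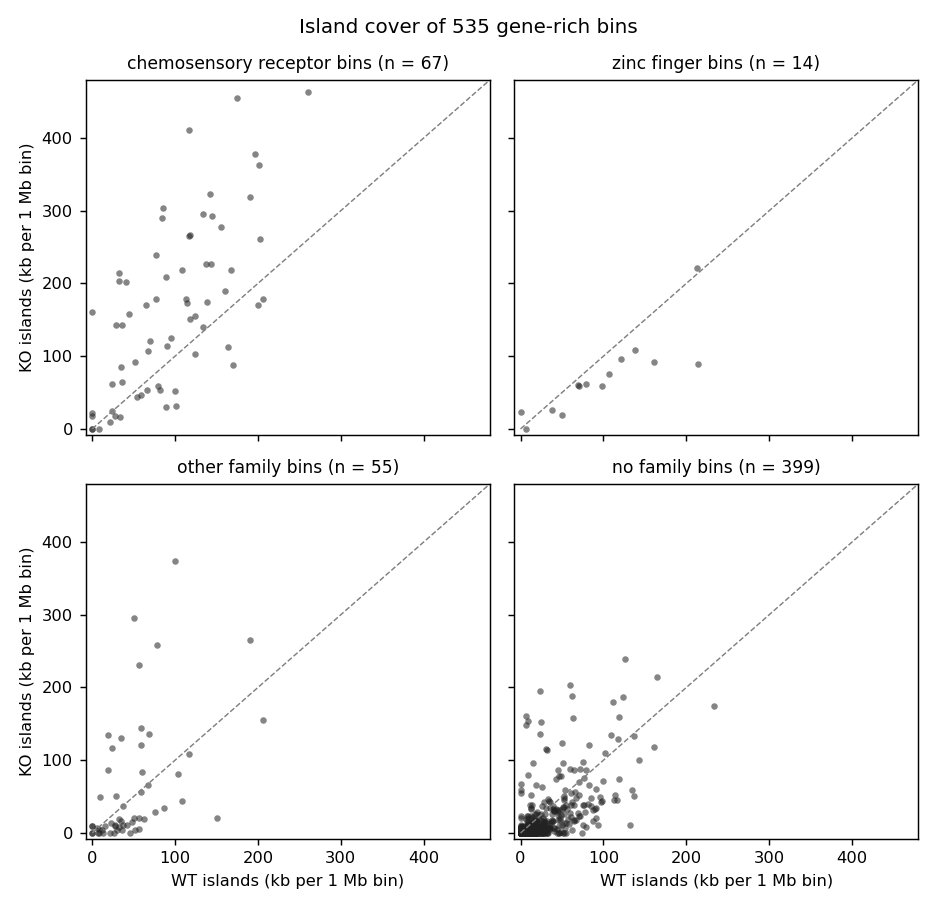
Each point is a gene-rich bin, with the length inside WT islands on the x axis and inside KO islands on the y axis (kb per 1 Mb bin); the dashed line marks equal length, and the panels split the bins by family. Chemosensory bins lie mostly above the line, up to 463.5 kb in KO, while 12 of the 14 zinc finger bins and 249 of the 399 bins with no family lie below it.

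Counted by gene, 1191 of the 12453 (9.56%) had a WT island in the gene or within 2 kb of it and 1258 (10.1%) a KO island, against 14.0% and 13.7% of all protein-coding genes; with KO islands of equal number the KO share was 5.91%. Lengths given for single genes include these flanks, and a gene is called marked where it had an island. Both lists marked 558 genes.

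Odorant receptors are encoded by single-exon coding regions in long tandem clusters, and each sensory neuron of the nose uses 1 of them. Of the 1060 in gene-rich bins, 270 (25.5%) had a WT island and 500 (47.2%) a KO island. Both lists marked 172 of them. WT islands alone marked 98 (9.25%, beside 6.39% of all genes) and KO islands alone 328 (30.9%, beside 6.16%). With KO islands of equal number the KO share was still 5.38 points above the WT share. The 49 odorant receptors outside gene-rich bins had an island in 21 (WT) and 20 (KO) cases.

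Of the 8 bins with most cover, 6 were led by odorant receptors in KO and 3 in WT. The second in WT, at 82 Mb of chromosome 10, had 233 kb in WT against 174.5 kb in KO. By symbol 2 of its 14 genes are zinc finger genes, too few to name the bin for a family. Clone-named relatives would not be counted there. The bin at 129 to 130 Mb of chromosome 10, with 49 odorant receptors among its 50 genes, had the most in both lists: 19 WT islands over 260 kb touched 21 receptors, and 33 KO islands over 463.5 kb touched 36. At 39 Mb of chromosome 9 cover was 174.5 kb in WT against 454.5 kb in KO, and receptors with an island numbered 12 and 32 of 36. At 111 Mb of chromosome 2 it was 117 and 411 kb, with 6 and 22 of 29 receptors. The bins at 38 Mb of chromosome 9 (85 and 304 kb), 13 Mb of chromosome 19 (142 and 322.5 kb) and 59 Mb of chromosome 16 (201.5 and 363 kb) likewise had longer cover in KO. The bin at 73 Mb of chromosome 11 had 203 kb in WT against 260.5 kb in KO, and this order turned in the KO list of equal number (KO minus WT −23.5 kb).

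Single receptors went both ways. Olfr183, a long gene model of 71.2 kb, had 22 kb in WT islands against 27.6 kb in KO islands, and with KO islands of equal number KO was 9.38 kb shorter. Olfr872 had 8 and 14 kb, and in the same setting KO was 0.5 kb shorter. Olfr78, an odorant receptor also found outside the nose, had 20.8 kb in WT and no KO island, and Olfr287 had 12.2 kb and none.

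Vomeronasal receptors detect pheromones. Of 245 in gene-rich bins, 53 (21.6%) had a WT island and 81 (33.1%) a KO island, and with KO islands of equal number KO was 1.22 points below WT. The bin at 20 Mb of chromosome 17, with 17 of them, had 197 kb in WT against 377.5 kb in KO, and that at 57 Mb of chromosome 6, with 20, had 206.5 and 179 kb. Vmn2r105 had 7 and 28.3 kb and Vmn2r16 5.62 and 27.1 kb, while Vmn2r90 had 31.6 and 15.5 kb. Of these, Vmn2r105 and Vmn2r90 changed sides when only islands above their list's median density were kept, with KO 7 kb shorter and 4 kb longer. Taste, trace amine and Mas-related receptors, also chemosensory, had a WT island in 9 and a KO island in 18 of 53. Mrgprb1 had none in WT and 16.2 kb in KO, and its neighbour Mrgprb2, a receptor of mast cells, 9.09 and 11.1 kb.

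**Figure D3:**
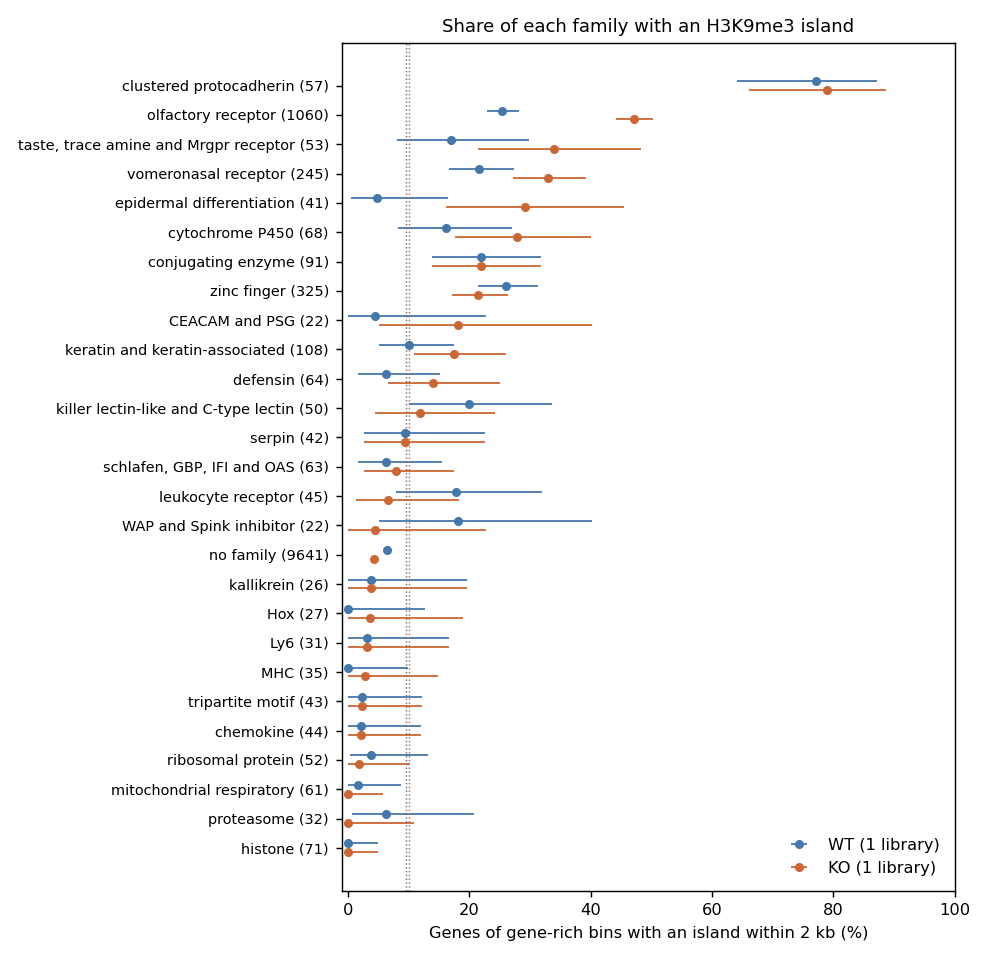
Share of the genes of each family in gene-rich bins with an island within 2 kb (x axis, percent), for families of 20 or more members (number in brackets), WT and KO list, 1 library each; bars are exact 95% intervals for the counting of genes, and dotted lines mark all genes of gene-rich bins (9.56% in WT, 10.1% in KO). Protocadherins stand highest in both, odorant receptors move from 25.5% to 47.2%, zinc fingers lie at 26.2% and 21.5%, and histones, at the bottom, had no island in either.

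Zinc finger genes encode DNA-binding repressors, many of which direct H3K9me3 to transposons. Of 325 in gene-rich bins 85 (26.2%) had a WT island and 70 (21.5%) a KO island. Both lists marked 58 of them. The WT list alone marked 27 (8.31%, beside 5.08% of all genes there) and the KO list alone 12 (3.69%, beside 5.62%). The shares with any island, 26.2% and 21.5%, were above the 9.56% and 10.1% of all genes there. Of the 143 zinc finger genes elsewhere, 38 had one in WT (26.6%, exact 95% interval 19.5 to 34.6, against 19.9% of all genes elsewhere). In KO 28 had one (19.6%, interval 13.4 to 27.0, against 18.6%). Outside gene-rich bins both intervals thus take in the general share, the WT one only just, and the KO share was at that level. Of the 14 zinc finger bins, the one at 21 Mb of chromosome 17 had 213.5 kb in WT against 89.5 kb in KO, though 5 of its 14 zinc finger genes had an island in each list. At 69 Mb of chromosome 8 cover was 160.5 and 92.5 kb and zinc finger genes with an island 5 and 1 of 6. At 67 Mb of chromosome 13, with 23 zinc finger genes, it was 121 and 95.5 kb, with 9 genes in each list. Of the islands of these bins 64.9% in WT were touched by a KO island and 75.2% in KO by a WT island. In chemosensory bins the WT share was much the same, 64.3%, and the KO share 37.0%. Such shares depend on the number of islands: 568 in WT and 1074 in KO there, against 111 and 101 in zinc finger bins.

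Some other long covers of the family were nearly level. The bin at 147 Mb of chromosome 4 had 212.5 kb at 62.4 reads per kb in WT and 221 kb at 66.3 in KO, an order that turned with KO islands of equal number (−1.5 kb) and without the densest 1% of islands (−34.5 kb). It holds Zfp982, with 60.1 kb in WT against 58.1 kb in KO (KO 3.5 kb longer when 10 kb flanks were counted), Zfp985, with 33.4 kb in each, and Zfp978, with 30.1 and 33.6 kb. Zfp936 on chromosome 7 had 58.1 and 55.1 kb.

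Islands of zinc finger genes sat towards the end of the gene, where such genes usually have the exon for the finger array. The WT profile took 73 genes of at least 10 kb with an island in the gene or its flanks. The mean share inside islands was 9.46% in the segment after the start, the first of 10 equal segments. It was 64.2% in segment 9 and 61.5% in segment 10. In the 62 genes profiled with a KO island the share was 8.12%, 67.5% and 61.4%. The 5 kb before the start had 23.3% in WT and 16.6% in KO, so the lowest share was in the segment just after the start. Genes of families other than zinc fingers and chemosensory receptors also had the highest share in segment 10, though less steeply: it went from 24.8% in segment 1 to 57.6% in segment 10 along 53 genes in WT (26.2 to 52.9% without the Ugt1a models) and from 26.2 to 30.7% along 65 in KO. In genes of no family the share was nearly flat, from 18.4 to 21.9% along 429 genes in WT and from 14.9 to 22.1% along 267 in KO. These profiles do not hold every such gene. Genes of no family with a WT island numbered 165 (10 to 30 kb), 230 (30 to 100 kb) and 140 (longer), together more than the 429 profiled. Zinc finger genes outside gene-rich bins, 27 in WT and 21 in KO, had 8.91% (WT) and 7.16% (KO) in the segment after the start and 39.5% and 38.5% in segment 10.

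**Figure D4:**
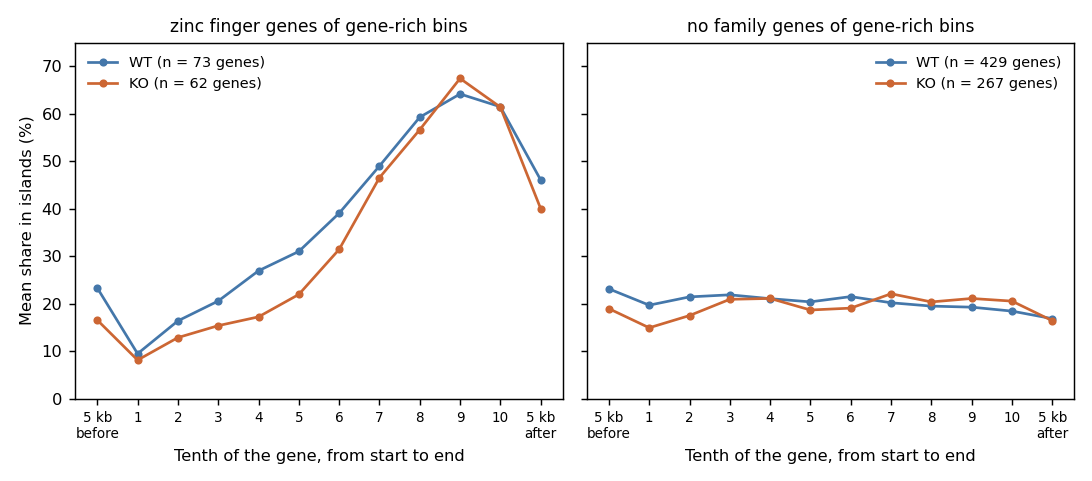
Mean share inside islands (y axis, percent) along the profiled genes, which are at least 10 kb long and have island cover. Each is cut into 10 equal segments from start to end, with 5 kb before and after. Zinc finger genes are on the left and genes of no family on the right, for the WT and the KO list. The zinc finger curves climb from 9.46% (WT) and 8.12% (KO) after the start to 64.2% and 67.5% in segment 9, while the others stay between 14.9% and 22.1% within the gene.

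Clustered protocadherins, adhesion proteins that give neurons their identity, were the family marked most completely: of 57, 44 (77.2%) had a WT and 45 (78.9%) a KO island, a difference that became −29.8 points with KO islands of equal number and −31.6 points with islands above the median density. They fill a single bin, at 37 Mb of chromosome 18 and with 67 genes the fullest of all, which had 17 WT islands over 190 kb and 23 KO islands over 265.5 kb. Their gene models overlap, so their values are not independent. Pcdha1, with the longest cover, had 63.7 kb in WT against 81.9 kb in KO, and KO was shorter in both those settings (−6.34 and −17.3 kb).

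Keratins and keratin-associated proteins build hair and epithelia. Of 108 genes 11 had an island in WT (10.2%, near the 9.56% of all genes) and 19 in KO (17.6%, beside 10.1%), and KO was 1.85 points below WT with KO islands of equal number. In the 6 bins they lead cover was 257 kb in WT against 663 kb in KO. The 2 with the largest KO excess, neighbours at 88 and 89 Mb of chromosome 16, made up 129 and 555 kb of it. The other 4, which remain after that choice, had 128 and 108 kb, with WT longer in 3. The bin at 88 Mb, with 14 such genes, had 50.5 and 296 kb, and 0 and 8 of the genes had an island. All 5 WT islands there, and part of the KO islands, lay before the first of these genes. Krtap6-2, in the bin at 89 Mb, had none in WT and 4.79 kb in KO, and on chromosome 11 Krtap4-1 had none and 5.01 kb while Krt222 had 10.5 kb in WT and none in KO. Proteins of the cornified skin layer had an island in 2 (WT, 4.88%) and 12 (KO, 29.3%) of 41 genes, and KO was 7.32 points above WT with KO islands of equal number. Flg, the filaggrin gene, had 8.46 and 11.1 kb, and its neighbours Rptn and Lce1k none in WT and 4.3 and 4.21 kb in KO.

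Drug- and steroid-metabolising enzymes gave some of the widest gaps. Cytochromes P450 had an island in 11 (WT, 16.2%) and 19 (KO, 27.9%) of 68 genes, an order that turned among islands above the median density (−2.94 points). Cyp2b9 had none in WT and 20.7 kb in KO, whereas Cyp3a13 had 36.7 and 6.5 kb and Cyp2c70 22.8 and 14 kb. Conjugating enzymes had an island in 20 of 91 genes (22.0%) in each list, while with KO islands of equal number KO was below WT (−7.69 points). Among them 9 are Ugt1a gene models that overlap and share islands, 9 with one in WT and 7 in KO, so they are not independent; the other 82 had one in 11 (13.4%) and 13 (15.9%). The bin at 87 Mb of chromosome 5, the Ugt2 glucuronosyltransferase cluster, had 9 WT islands over 100 kb and 38 KO islands over 373.5 kb, touching 5 and 10 of its 11 conjugating enzymes. Ugt2b36 there had 7.56 kb in WT against 27.6 kb in KO, and Ugt2b5 16.6 and 3.06 kb, of which the latter turned among islands above the median density (KO 3.06 kb longer).

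The Ugt1a bin, at 88 Mb of chromosome 1, stood apart in the other direction, with 151 kb in WT against 20 kb in KO. Its WT islands held 123 reads per kb and its KO islands 43.0. A single WT island, chr1:88208501-88319500, made up 111 kb of it. That island was the longest of any gene-rich bin, held 152 reads per kb, ran over Ugt1a genes and on through Mroh2a, Hjurp and Trpm8, and no base of it was inside a KO island. Copy number at this stretch was not tested, since the input libraries are not analysed here, so its values and those of the Ugt1a genes and Mroh2a may not be read as the mark alone. The next longest WT islands were of usual density: 54 kb at 40.5 reads per kb over Cyp3a13, and 52.5 kb at 50.8 over the imprinted gene Kcnq1, of which KO islands covered 12% and 85.7%.

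Other secreted and reproductive families had small counts, to be read beside the 9.56% (WT) and 10.1% (KO) of all genes of gene-rich bins. Defensins, antimicrobial peptides, had an island in 4 (WT, 6.25%) and 9 (KO, 14.1%) of 64, a gap that closed to 0 points with KO islands of equal number, with Defb50 at 7.8 kb in WT and none in KO and Defb1 at none and 6.19 kb. Serpins, protease inhibitors, had 4 in each list among 42 (9.52%), the general level. Carcinoembryonic and pregnancy-specific glycoproteins had 1 and 4 of 22 (4.55 and 18.2%), and the WAP and Spink protease inhibitors 4 and 1 of 22, with exact intervals that take in the general shares. Kallikreins (26 genes), Ly6 proteins (31) and tripartite motif proteins (43) had 1 gene with an island in each list. Lipocalins and urinary proteins had 7 (43.8%, interval 19.8 to 70.1) and 3 (18.8%) of 16, and the lipocalin bin at 25 Mb of chromosome 2, among the fullest with 60 genes, had 51.5 and 4 kb, with Lcn8 at 7.1 kb in WT and none in KO. NLR proteins, known as sensors of the cytosol and, for several Nlrp genes, from egg cells, had 2 (11.1%) and 8 (44.4%, interval 21.5 to 69.2) of 18, with KO 5.56 points above WT when its islands were of equal number. On chromosome 7 Nlrp9b had 27 kb (WT) and 17.5 kb (KO), while Nlrp9a (9.65 kb) and Nlrp4c (9.5 kb) had an island in KO alone.

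Families with roles in immunity went different ways, the NLR genes and defensins above included. MHC genes, which present antigens, had an island in 0 (WT) and 1 (KO) of 35, and chemokines and their receptors in 1 of 44 (2.27%) in each list, the gut-homing receptor gene Ccr9, with 4.46 and 3.96 kb. Killer lectin-like and C-type lectin receptors had an island in 10 (WT, 20%) and 6 (KO, 12%) of 50, with exact intervals, 10.03 to 33.7 and 4.53 to 24.3%, that lie above the general WT share and take in the KO one. Klra17 had 18 kb in WT and none in KO, and Klra2 had 18 and 13.5 kb, with KO 13.5 kb longer among islands above the median density. Immunoglobulin-like leukocyte receptors had 8 (17.8%) and 3 (6.67%) of 45, both with intervals around the general share: Ncr1, the activating receptor NKp46 of natural killer cells, had 10.2 kb in WT and none in KO, and Cd200r2 18.3 and 7.34 kb. Interferon-inducible families had 4 and 5 of 63 (6.35 and 7.94%), an order that turned with KO islands of equal number (−3.17 points), with Ifi207 at 15.4 and 7.33 kb and Ifi204 at 1.71 and 8.21 kb.

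Of 31 genes on a list of T cell identity, memory, effector and inhibitory genes that lie in gene-rich bins, 3 had a WT island and 0 a KO island. These were Btla, an inhibitory receptor, with 9 kb, Entpd1, which encodes the ectonucleotidase CD39, with 9.5 kb, and Il2rb, a chain of the IL-2 receptor, with 7 kb. The list's shares, 9.68% in WT and 0% in KO, stand beside 9.56% and 10.1% of all genes of gene-rich bins, and 0 of 31 allows a share of up to 11.2% (exact interval).

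Genes that nearly all cells use had few islands, as had genes of no family below 10 kb in general (2.74% in WT and 2.79% in KO). Histone genes had none in either list, 0 of 71, which allows a share of up to 5.06% (exact interval), although their clusters lie next to marked genes. The bin at 21 Mb of chromosome 13 holds 17 histone genes, 12 odorant receptors and 6 zinc finger genes, and had 206.5 kb in WT against 155.5 kb in KO: odorant receptors with an island numbered 7 and 5, zinc finger genes 4 and 2, and histone genes 0 and 0. Ribosomal protein genes had an island in 2 (WT, 3.85%) and 1 (KO, 1.92%) of 52, an order that turned when gene bodies alone were counted (1.92 points). Proteasome subunits had 2 (6.25%) and 0 of 32. Their exact intervals take in the 9.56% (WT) and 10.1% (KO) of all genes of gene-rich bins. Respiratory chain genes had 1 (1.64%) and 0 of 61, with intervals up to 8.80% and 5.87%, below those shares. These families were not matched to other genes by length. Hox genes, which pattern the body axis and are usually held by another silent mark, had 0 and 1 of 27, the 1 being Hoxb2 with 2.52 kb. Their exact intervals, up to 12.8% in WT and 19.0% in KO, take in the shares of all genes of gene-rich bins.

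**Figure D5:**
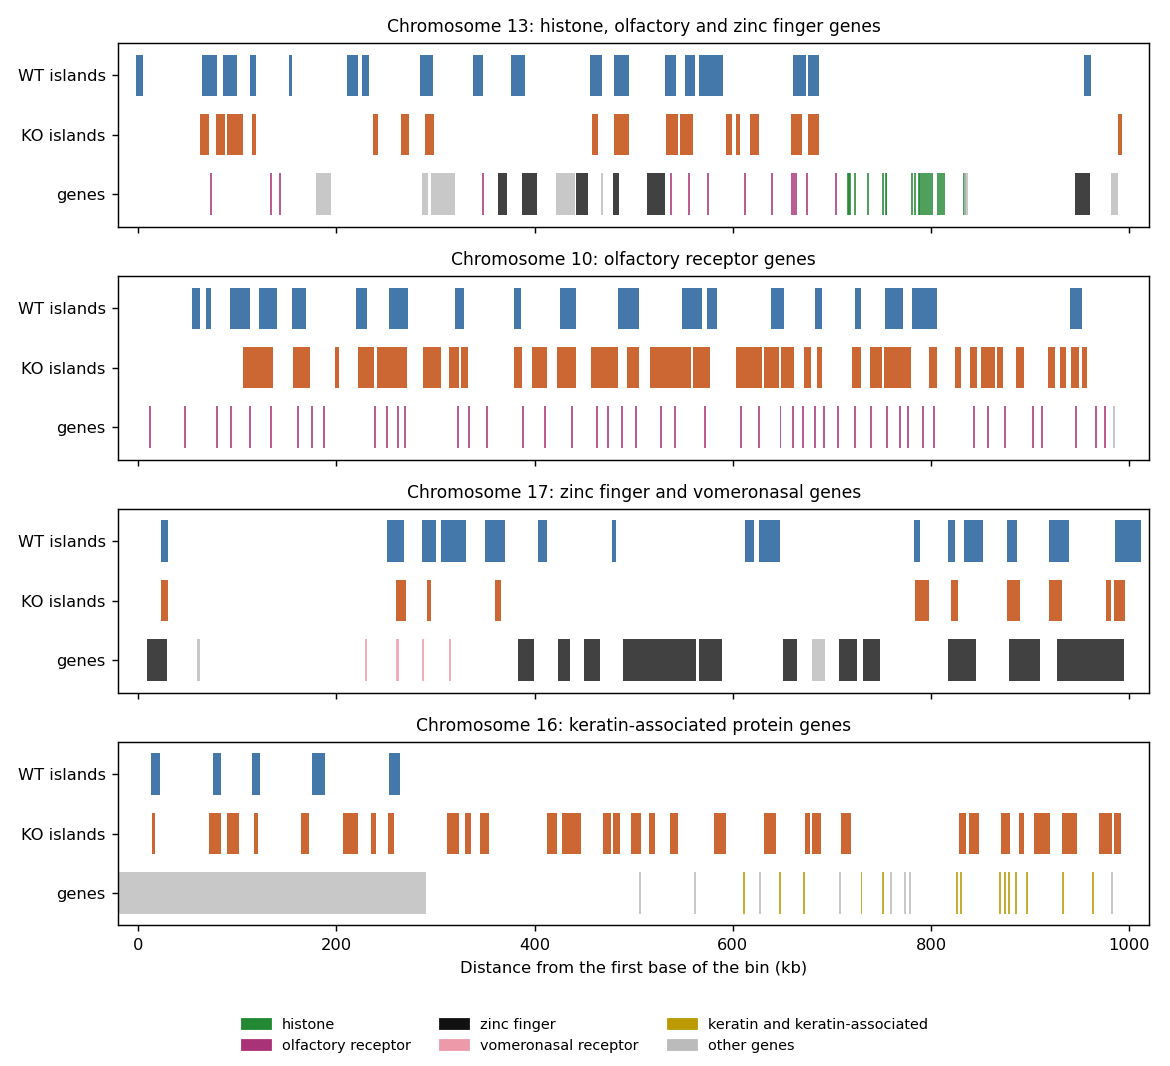
WT islands, KO islands and protein-coding genes, coloured by family, along 4 gene-rich bins, with distance from the bin's first base on the x axis (kb). On chromosome 13 no island of either list overlaps a histone gene (cover of the bin 206.5 kb in WT against 155.5 kb in KO). KO islands cover more of the bins on chromosomes 10 (260 and 463.5 kb) and 16 (50.5 and 296 kb). In the chromosome 16 bin all 5 WT islands, and part of the KO islands, lie before the first keratin-associated gene. On chromosome 17 WT islands are the longer (213.5 and 89.5 kb).

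Genes of no family were marked less in KO. Of 9641 in gene-rich bins 633 (6.57%) had a WT and 424 (4.40%) a KO island, 201 in both, against 19.7 and 18.1% of the 8685 such genes elsewhere. Longer genes had larger shares. Below 10 kb the 3583 genes had 98 in WT and 100 in KO, from 10 to 30 kb the 3423 genes 165 and 87, from 30 to 100 kb the 2180 genes 230 and 140, and from 100 kb up the 455 genes 140 and 97. Only the genes below 10 kb were level, while in each longer class WT had more.

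Apart from 3 long gene models that span the protocadherin cluster, the longest covers of genes of no family lay over large genes of nerve and muscle. Dock3, a guanine nucleotide exchange factor of neurons, had 92.8 kb in WT against 73.5 kb in KO, and Ryr3, a calcium release channel, 86.5 and 125.5 kb. Grik1, a glutamate receptor subunit that reaches into the keratin-associated bin of chromosome 16, had 82.5 and 114.5 kb, and with KO islands of equal number KO was 20 kb shorter. Fmn2, an actin nucleator, had 9 kb in WT against 124 kb in KO. Genes with an island in 1 genotype alone were picked after their values were seen. In WT alone the longest were Zswim5 (45.1 kb), Epn2 (39.7 kb), Mroh2a (39.3 kb, in the dense island of chromosome 1) and Ckap5 (37 kb), with the heart and gut factor gene Gata4 at 28 kb. In KO alone they were Usp29 (66.7 kb), an imprinted gene, Syt10 (51.5 kb), a synaptotagmin, and the protease gene Tmprss11e (30.8 kb). No such gene could be tested against replicate spread.

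The 53 bins without an island hold 1395 genes, 11.2% of those in gene-rich bins. They hold 0 of 1060 odorant receptors, 0 of 57 protocadherins, 0 of 108 keratin genes and, though histones had no island, 0 of 71 histone genes. Genes of no family make up 1287, and 12 of 325 zinc finger and 7 of 35 MHC genes are there. The fullest bins without an island lie at 45 Mb of chromosome 7 (66 genes), 69 Mb of chromosome 11 (62 genes) and 35 Mb of chromosome 17 (61 genes, 7 of them MHC). In the last of these, islands were placed by midpoint and 1 gene is still touched by a WT island centred outside. The longest runs were 4 bins at 3 to 7 Mb of chromosome 14 (61 genes) and 3 bins at 122 to 125 Mb of chromosome 5 (67 genes), and the bins at 80 to 82 Mb of chromosome 10 hold 104 genes. The run on chromosome 14 consists almost wholly of genes known by clone or locus names (60 of 61). Not all chemosensory genes lie near islands: 41 of 245 vomeronasal receptors lie in bins without islands, and all 41 are in the run at 21 to 23 Mb of chromosome 7 (51 genes). Repeat content and the share of sequence where reads can be placed were not computed here, so a bin without an island, the runs on chromosomes 14 and 7 included, is not shown to lack the mark.

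Promoters inside islands held fewer CG than those outside. Of the 12453 genes, 10158 had RefSeq promoters (12226 windows, none from chromosome 18), with a median of 12 CG per window of 300 bases, against 13 over all protein-coding genes. Windows wholly inside islands of both lists (124) had a median of 1, inside WT islands alone (250) of 2, inside KO islands alone (327) of 1, and inside neither (11525) of 14. At least 10 CG were found in 2.42%, 14.8%, 1.22% and 58.3% of them. Most marked starts are those of receptors, 384 odorant and 62 vomeronasal genes, whose promoters have few CG whether marked or not: odorant receptor windows inside neither list also had a median of 1. Within genes of no family, 33.0% of the 106 windows inside WT islands alone had at least 10 CG, against 5.66% of the 53 inside KO islands alone and 65.3% of those inside neither.

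The letters TATAAA, searched on both strands, occur in 12.6% of all promoter windows and 13.5% of those of gene-rich bins, in 35.5% of windows inside both lists' islands, 29.6% inside WT alone, 45.0% inside KO alone and 12.1% inside neither. Odorant receptors as a whole had them in 40.5%, and their windows inside neither list's islands in 37.4%. The median GC content of the same 4 groups of windows was 35.8%, 40.3%, 35.7% and 57.0%. These shares are therefore not parted from base composition or family. The printed windows of Olfr44 and Krtap21-1 hold them, and those of the other 4 genes do not. Zinc finger promoters had a median of 14 CG and lay inside an island in 10 of 345 windows, so the long islands over these genes, as over Zfp982, seldom took in the whole promoter. Among the islands of gene-rich bins outside chromosome 18, 16.2% in WT and 16.5% in KO overlapped a gene start, 33.3% and 29.4% in chemosensory bins, but 8.49% and 4.42% in bins with no family and 1.35% and 0.713% in bins with 1 to 4 genes.

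The densest island of gene-rich bins was the same stretch in both lists. It lay within Sfi1, the gene of a centrin-binding protein, at chr11:3184001-3200500, and held 787 reads per kb in WT and 798 in KO. The next densest, at chr15:75084501-75087500 and over no protein-coding gene, held 432 in WT, and the KO island inside it 539. Copy number and repeat content were not tested at these stretches, so their densities may not be read as the mark alone. The longest KO islands, over Epha6 (54.5 kb), Kcnq1 (45 kb) and the odorant receptors Olfr791 and Olfr792 (41.5 kb), held 41.4, 49.1 and 42.2 reads per kb, near the general level, and WT islands covered 21.1%, 100% and 21.7% of them.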

How the data were processed

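Reads were aligned with Bowtie2 and islands called with SICER 1.1 on mm10, per the submitters' processing notes; the window, gap, threshold, duplicate and input settings were not given in the sources used here. For each H3K9me3 library the authors deposited 1 island list (12371 islands in WT, 25424 in KO) with a whole-number count per island, read here as ChIP reads (5547695 and 10020253 in all) and not scaled to depth. Library depth is unknown, and its part in the number of islands was not tested. Positions lie on a grid of 500 bp and were counted from 1. Lists were called separately.

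Genes came from RefSeq GRCm38.p6, the assembly of mm10; 348 genes on scaffolds, known by table order, were left out. Chromosome lengths were not used: the bin holding the last gene or island was taken as incomplete and left out, and 4 such bins held 13 or more genes. Islands went to bins by midpoint. A gene had an island when at least 1 bp of it or its 2 kb flanks was covered. The 29 families were read from symbols, so clone-named relatives count as no family. Members, lists and families were chosen with earlier results of these data known. By the naming rule, bins with most cover, the largest differences, most genes and no island are named, with the longest and densest islands, the family members and other genes with the longest cover, T cell genes with cover, and promoters wholly inside islands in the 3 families with most (4 of 6 printed); the text describes some of these. Counts, shares and exact (Clopper-Pearson) intervals were computed with Python 3.11.15, pandas 2.3.3, numpy 2.4.6 and scipy 1.17.1. The code that counts covered length and islands per bin was tested on simulated islands. Alternatives were islands above the median density of their list, a KO list of equal number, islands of at least 5 kb, no densest 1%, bins of 10 or 20 genes, a shifted grid, assignment by covered sequence, and other gene flanks.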

Additional observations from a re-analysis of the deposited data

How the results depend on the processing

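No paired analysis was possible because WT and KO have 1 H3K9me3 list each, and for the same reason no replicate could be left out. With islands above the median density of their own list, bins with a WT island were 77.2%, with a KO island 66.2% and with both 58.7%, cover was 2.39% in WT and 2.47% in KO, and genes with an island were 6.11% and 6.24%. With KO islands of equal number, bins with a KO island were 49.2% and with both 47.7%, KO cover was 3.03%, KO genes were 5.91%, and the KO to WT ratio of cover was 0.777 in bins of other families (reversed) and 0.488 in bins with no family; this setting drops KO islands only, so KO can only lose by it. With islands of at least 5 kb, KO bins were 68.2%, bins with both 63.7%, cover 4.15% in WT and 4.49% in KO, and KO genes 9.46%; without the densest 1%, cover was 4.16% and 4.61%. Bins of 10 or more genes had 4.43% and 4.78% cover and 10.6% of genes in WT, bins of 20 or more 4.65% and 5.57% cover and 10.8% of genes in KO, and the shifted grid 4.48% cover in WT. Gene bodies alone gave 7.87% (WT) and 8.34% (KO) of genes, and flanks of 10 kb 14.4% and 14.1%. KO minus WT turned with KO islands of equal number for vomeronasal receptors (−1.22 points), protocadherins (−29.8), keratins (−1.85) and interferon-inducible genes (−3.17), for Olfr183 (−9.38 kb), Olfr872 (−0.5 kb), Pcdha1 (−6.34 kb) and Grik1 (−20 kb), and for the bins at 147 Mb of chromosome 4 (−1.5 kb) and 73 Mb of chromosome 11 (−23.5 kb). It turned among islands above the median density for protocadherins (−31.6 points), cytochromes P450 (−2.94), Vmn2r90 (4 kb), Vmn2r105 (−7 kb), Pcdha1 (−17.3 kb), Klra2 (13.5 kb) and Ugt2b5 (3.06 kb), with gene bodies for ribosomal proteins (1.92 points), with 10 kb flanks for Zfp982 (3.5 kb), and without the densest 1% for the chromosome 4 bin (−34.5 kb). For these the cause was not tested beyond the smaller lists themselves. Assigning islands by covered sequence moved none of 34 results, and for families the settings of equal number, median density and gene bodies were planned, while their other settings, and those for ratios of cover, single genes and single bins, were added after the data were seen. Depth is unknown and limits which islands could be called.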
